A study of Mus musculus with 6 samples.

Results

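Many of the genes described here encode RNA-binding proteins that choose which splice sites are used. Among them are the SR proteins (Srsf genes) with their relatives Tra2a and Tra2b, the hnRNP proteins, and the Ptbp, Celf and Mbnl families. The RNA-binding motif (Rbm) genes share a name rather than a common role, so not every member need be a splicing regulator. All were taken from the gene table by symbol, as every row starting with Srsf, Hnrnp, Mbnl, Celf, Ptbp or Rbm plus a digit, with Tra2a and Tra2b. Rbm17 and 6 pseudogene rows with -ps in their symbol were left out. This gave 80 of 26469 gene rows, 79 of which were abundant enough to be tested. Rbm47 had 2 to 8 counts per library and was not tested. The set has 11 SR, 2 Tra2, 20 hnRNP, 3 Ptbp, 5 Celf, 3 Mbnl and 36 Rbm genes. It includes Rbm3os, an antisense RNA that the symbol rule also takes and that codes for no splicing regulator.

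RNA was sequenced from 6 cultures of mouse splenic CD4+ T cells. All started as naive cells and were held for 36 h with TGF-β at 5 ng/ml, antibodies to CD3 and CD28, and antibodies blocking IL-4 and IFNγ, a mixture that drives naive cells towards regulatory T cells. The 3 control samples came from Sf3b1K700E/fl mice without Cre and are annotated as wild type, and the 3 mutant samples came from Sf3b1K700E/fl /Cd4Cre mice and are annotated as carrying the Sf3b1 mutation. All 6 thus share the conditional allele. Cd4-Cre acts from the CD4-expressing stage of thymic development on, so the allele is switched in the T cell lineage before culture. Strain, age and the number of animals are not stated, so a p-value here reflects only how far these 6 samples spread, part of which may be technical.

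SR proteins bind exonic enhancers through RNA recognition motifs and recruit the U1 and U2 snRNPs through domains rich in arginine and serine. Many hnRNP proteins and PTBP1 bind silencers and counter them, and the balance of both sets whether an exon is kept. SF3B1, the protein altered in the mutant cells, sits in the U2 snRNP and recognises the branch point that these regulators help to define. Many SR and hnRNP genes control their own level by including a poison exon that sends the transcript to nonsense-mediated decay. The values below are counts per gene and do not separate such transcripts from the coding ones. In T cells, several of these proteins change the splicing of Ptprc (CD45) upon activation.

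Library totals ran from 33633196 to 43928723 counts, and the 80 genes took 1.80% to 2.23% of them. Sf3b1 itself was at 632, 712 and 638 CPM in the controls and 649, 593 and 639 CPM in the mutants (CPM, the count scaled to library size, here and below in the order of libraries 1, 2 and 3), with a log2 fold change of -0.075 ± 0.13 (SE). A count per gene holds no allele, so the genotype labels were not checked by it. The summed T cell markers (Cd3d, Cd3e, Cd3g, Cd4, Trac and Lck) ran from 1344 to 1854 CPM in the controls and from 1426 to 2114 CPM in mutant libraries. The 5 B cell markers summed to 1.92 to 4.91 CPM in the controls and 3.67 to 40.2 CPM in the mutants, with the highest sum in mutant 2. The 2 CD8 markers summed to 5.81 to 40.4 CPM and 6.56 to 17.3 CPM, highest in control 1. The sums of myeloid, NK cell and erythroid markers were at most 5.34 CPM, and each of these markers was above 0 in some library. Genes of small structural RNAs took 2.72%, 2.48% and 2.39% of the counts in the controls and 1.68%, 2.48% and 1.56% in the mutants. Mitochondrial genes took 1.99%, 2.18% and 2.23% in the controls and 1.90%, 2.35% and 2.35% in the mutants. Mutant 1 stood apart from the other libraries in 2 lists that mark T cell state. The mean log2 CPM of 14 activation genes, relative to the control mean, was -0.94 in mutant 1 and 0.066 and 0.17 in mutant 2 and 3. That of 12 quiescence genes was 1.47, 0.22 and -0.20.

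No member passed the test between mutant and control cells. In edgeR (quasi-likelihood test), 0 of 79 had an adjusted p under 0.05, as in the whole table (0% of 18323 genes), and the smallest adjusted p was 0.654, for Mbnl3. At an unadjusted p under 0.05 there was 1 member, Mbnl3, against 7.62% of all genes tested, and 0 of the 79 were lower at that level against 3.48% of all genes. DESeq2 called 0 members (0.633% of the genes it gave an adjusted p) and limma-voom 0, each with 0 members at an unadjusted p under 0.05. Differences were small. The median absolute log2 fold change was 0.15 among the 79 genes and 0.23 among all genes tested, which include many of lower abundance and so of larger error. Among genes with a mean of 10 CPM or more the medians were 0.15 for 70 members and 0.17 for all 9372. The 95% interval of the fold change lay within 2-fold in either direction for 71 of the 79 members, and within 1.5-fold for 40. The 8 that could not be bounded by 2-fold were Celf3, Celf4, Celf5, Mbnl3, Rbm11, Rbm38, Rbm44 and Srsf12. In bulk RNA, fewer cells of a type and less RNA per cell cannot be told apart.

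**Figure D1:**
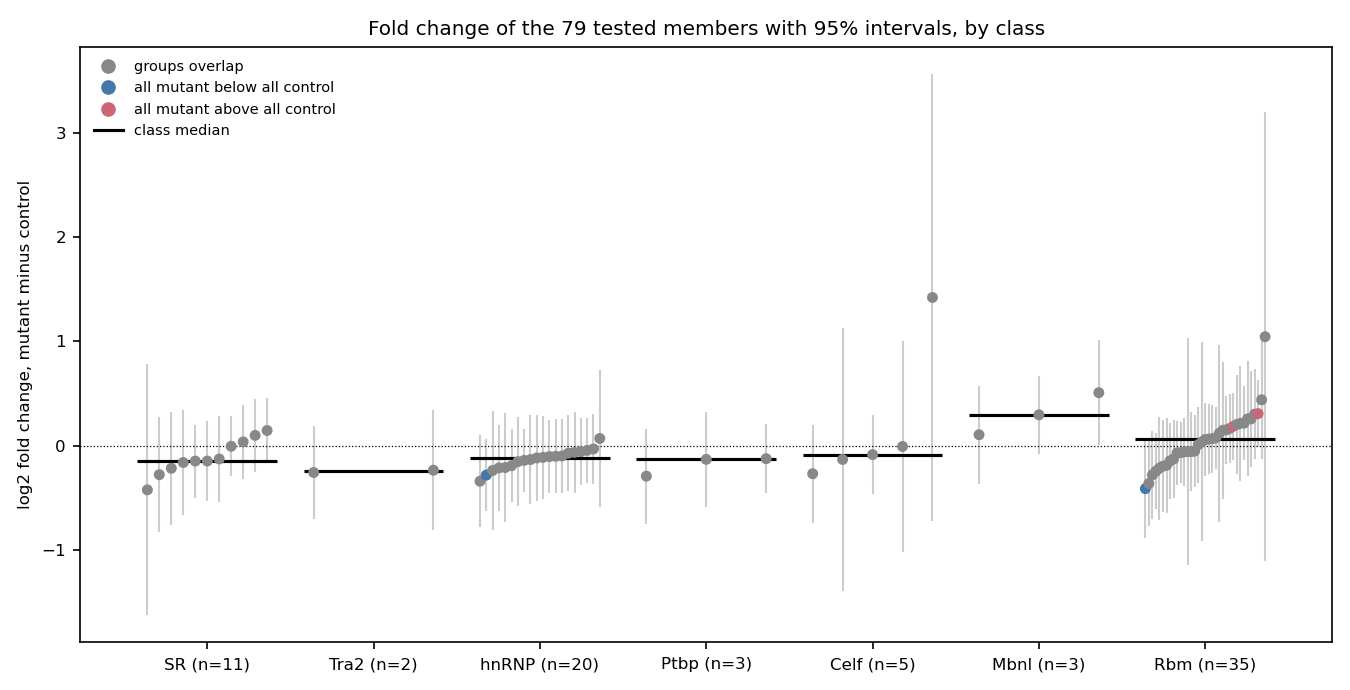
Log2 fold change (y axis, mutant minus control) of each of the 79 tested members, grouped by class on the x axis and sorted within it. Points are edgeR estimates, grey lines 95% intervals and black bars class medians. Of the intervals, only that of Mbnl3 leaves out 0, and the medians of the SR, Tra2, hnRNP, Ptbp and Celf classes lie below 0 while those of the Mbnl and Rbm classes lie above.

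The direction of the means differed by class. Of the 79 members, 51 had a lower and 28 a higher mutant mean, and the median log2 fold change was -0.071 against 0.024 for all genes tested. The hnRNP genes were lower in 19 of 20 cases (median -0.12), the SR genes in 8 of 11 (-0.15), both Tra2 genes (-0.25), the 3 Ptbp genes (-0.13) and 4 of 5 Celf genes (-0.087). The Celf direction turned to 0.17 with 1 of 5 lower without mutant 1, and to 0.35 with 2 of 5 lower without control 1. The 3 Mbnl genes had higher means (median 0.30), and the Rbm genes were split, with 20 of 35 higher (median 0.059). Among all genes with a mean of 10 CPM or more, 54.9% had a lower mean. These are counts of unequal sizes of change, most of them below the error of a single gene. In only 4 members did the groups not overlap. Hnrnph3 and Rbm8a2 had all mutant values below all control values (2 of 79, against 7.48% of all genes), and Rbm5 and Rbm42 had them above (2 of 79, against 6.60%). Both shares are below those of the whole table. Among all 9372 genes with a mean of 10 CPM or more, 1013 were lower and 397 higher without overlap. Of the 70 members at that level, 1 was lower and 2 were higher. Leaving out mutant 1 turned the median of the 79 members to 0.0021, with 36 of 79 lower, and leaving out mutant 3 gave -0.15, with 54 lower. With any 1 library left out, groups without overlap numbered 2 to 23 on the lower side (23 without mutant 3, or 29.1% against 16.1% of all genes in that fit) and 2 to 10 on the higher side (10 without control 2, or 12.7% against 13.1%); smaller groups overlap less often by construction.

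**Figure D2:**
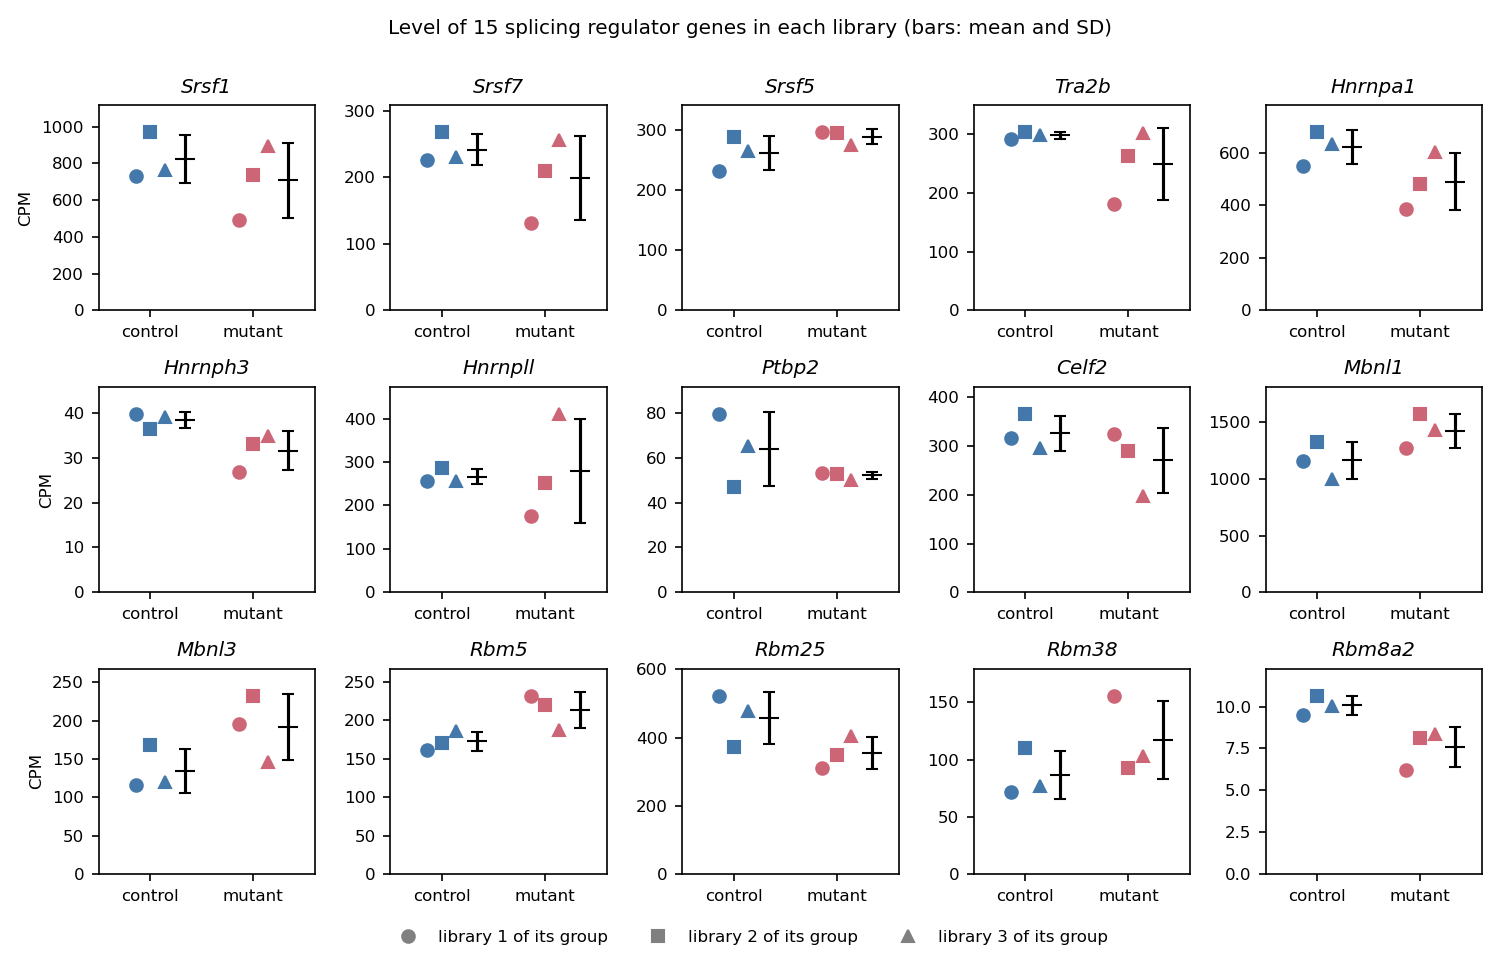
CPM (y axis, from 0) of 15 members in the 3 control (blue) and 3 mutant (red) libraries, with the marker shape giving the library number and the black bar the mean and SD. Mutant 1, the red circle, is the lowest library for Srsf1, Srsf7, Tra2b, Hnrnpa1, Hnrnph3, Hnrnpll, Rbm25 and Rbm8a2 and the highest for Rbm5, Rbm38 and, narrowly, Srsf5.

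Among the SR genes, the low values lay mainly in mutant 1, the lowest library in 8 of 11 genes, while control 2 was the highest in 6. Without control 2 the class median of -0.15 became -0.042, with 8 of 11 genes lower. Srsf1, the prototype SR protein, which binds purine-rich exonic enhancers, was at 734, 971 and 764 CPM in the controls and 489, 735 and 897 CPM in the mutants. Mutant 1 was the lowest of the 6 libraries, while mutant 2 and 3 lay within the range of the controls. The log2 fold change was -0.22 ± 0.24 (SE) and 0.0015 without mutant 1. Srsf7, an SR protein with a zinc knuckle that also serves in mRNA export, was at 226, 268 and 231 CPM in the controls and 131, 210.2 and 256 CPM in the mutants. Its mutant 1 and mutant 2 values were below every control and its mutant 3 value was not (-0.28 ± 0.24 on the log2 scale, -0.039 without mutant 1). Srsf2, a protein of nuclear speckles whose gene is, like SF3B1, mutated in myelodysplastic syndromes, was at 461, 617 and 461 CPM in the controls and 357, 428 and 590.2 CPM in the mutants. As with Srsf1, mutant 3 was second only to control 2, and the log2 fold change of -0.16 ± 0.22 became 0.0021 without mutant 1.

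The small SR protein gene Srsf3 was at 495, 556 and 497 CPM in the controls and 413, 442 and 539.9 CPM in the mutants, a log2 difference of -0.15 ± 0.15 (SE; -0.057 without mutant 1). Srsf10, whose protein represses splicing when it is dephosphorylated, was at 266, 284 and 269 CPM in the controls and 195, 260.0 and 283 CPM in the mutants (-0.15 ± 0.16, and 0.0055 without mutant 1). Srsf9 was at 55.7, 69.7 and 52.7 CPM in the controls and 47.2, 50.5 and 65.2 CPM in the mutants (-0.13 ± 0.18, -0.025 without mutant 1). In these 3 genes mutant 1 was again the lowest library. Srsf5, Srsf6 and Srsf4, which form a subfamily of SR proteins with longer RS domains, had means that were not lower in mutant cells. Srsf5 was at 232, 288 and 265 CPM in the controls and 297, 296 and 275 CPM in the mutants, where mutant 1 and 2 exceeded every control and mutant 3 did not (0.14 ± 0.14). Srsf6 was at 338, 433 and 367 CPM in the controls and 384, 381 and 452 CPM in the mutants (0.10 ± 0.15) and Srsf4 at 104, 100.3 and 99.7 CPM in the controls and 121, 86.3 and 104 CPM in the mutants (0.035 ± 0.15, turning to -0.076 without mutant 1). Srsf11 showed the closest agreement of means, at 288, 261 and 271 CPM in the controls and 257, 275 and 284 CPM in the mutants (-0.0070 ± 0.13, 95% interval from -0.30 to 0.28). Srsf12 was barely expressed, at 2.21, 0.761 and 1.62 CPM in the controls and 0.593, 1.73 and 1.09 CPM in the mutants, and its log2 fold change of -0.43 ± 0.52 had an interval from -1.63 to 0.78. Adjusted p-values of the 11 SR genes in edgeR ran from 0.787 to 0.989.

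Tra2a and Tra2b, SR-like proteins that bind GAA-rich enhancers and work together with SR proteins, were lowest in mutant 1. Tra2b was at 293, 304 and 298 CPM in the controls and 182, 264 and 302 CPM in the mutants and Tra2a at 145, 148 and 144 CPM in the controls and 75.6, 146 and 149 CPM in the mutants. The 3 controls of Tra2a were close together, mutant 2 and 3 lay beside them, and mutant 1 was far below. The log2 fold change of Tra2a was -0.24 ± 0.25 (SE) on all libraries and 0.031 without mutant 1. That of Tra2b was -0.26 ± 0.19 and -0.063, with mutant 2 also below the controls. Their adjusted p-values in edgeR were 0.817 and 0.761.

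The hnRNP genes shared a direction: 19 of 20 had a lower mutant mean, with log2 fold changes from -0.34 to 0.068, and none passed the test (edgeR adjusted p from 0.712 to 0.956). All 20 intervals lay within 2-fold, and 14 within 1.5-fold. Hnrnph3, a member of the group that binds runs of G, was at 39.8, 36.4 and 39.2 CPM in the controls and 26.8, 33.2 and 34.9 CPM in the mutants, without overlap of the groups (-0.28 ± 0.15 on the log2 scale, -0.16 without mutant 1). Hnrnpa1, the best known exon silencer of the family, was at 550.5, 679 and 635 CPM in the controls and 385, 482 and 603 CPM in the mutants. Only mutant 3 reached into the control range, and the log2 fold change was -0.34 ± 0.19 (-0.18 without mutant 1). Its paralogue Hnrnpa2b1 was at 1323, 1545 and 1276 CPM in the controls and 809, 1329.5 and 1440.0 CPM in the mutants, where mutant 1 stood alone (-0.21 ± 0.23, turning to 0.016 without it). Hnrnpa1 and Hnrnpa3 have many processed pseudogene copies in the mouse genome, so their values depend on how reads were shared out.

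Hnrnpab, a protein of the hnRNP A/B group, was at 735, 954 and 767 CPM in the controls and 482, 656 and 942 CPM in the mutants, with mutant 1 and 2 below every control and mutant 3 near the highest one (-0.24 ± 0.25, -0.022 without mutant 1). Hnrnpm, which shares targets with epithelial splicing regulators, was at 359, 402 and 345 CPM in the controls and 250.5, 323 and 379.7 CPM in the mutants (-0.21 ± 0.18, -0.056 without mutant 1). Hnrnpdl, a relative of the AU-rich element binding protein Hnrnpd, was at 276, 376 and 300.4 CPM in the controls and 242, 271 and 342 CPM in the mutants (-0.15 ± 0.19, -0.036 without mutant 1). In Hnrnpab, Hnrnpm and Hnrnpdl, mutant 1 was lowest, mutant 2 next, and control 2 highest. Hnrnpf, which binds G runs next to 5' splice sites, was at 911, 1153 and 957 CPM in the controls and 816, 861 and 965 CPM in the mutants (-0.19 ± 0.15, -0.13 without mutant 1), and Hnrnpul2 at 329.6, 389 and 355 CPM in the controls and 331, 308 and 332 CPM in the mutants (-0.14 ± 0.13). Hnrnpu, a nuclear scaffold protein, was at 1353, 1690.3 and 1520.5 CPM in the controls and 1170.3, 1416 and 1631 CPM in the mutants (-0.11 ± 0.17, 0.015 without mutant 1). Hnrnpll was the exception among the 20 and is named after its values were seen. Its protein is induced when T cells are activated and switches CD45 to its short form. It was at 257, 286 and 256 CPM in the controls and 176, 251 and 411 CPM in the mutants, with mutant 1 below and mutant 3 above every control, so the log2 fold change of 0.068 ± 0.28 (95% interval from -0.59 to 0.72) averages opposite deviations.

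The hnRNP medians depended on single libraries. Control 2 was the highest of the 6 libraries in 14 of the 20 genes and mutant 1 the lowest in 15. Without control 2 the class median was -0.026 with 14 of 20 lower, and without mutant 1 it was -0.029 with 13 of 20 lower. Without mutant 3 it was -0.25 with 20 of 20 lower. The mean level of the class, relative to the control mean on the log2 scale, was -0.10, 0.15 and -0.044 in the controls and -0.35, -0.16 and 0.073 in the mutants, so the groups overlapped.

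The 3 Ptbp genes encode proteins that bind pyrimidine tracts and repress nearby exons. Ptbp1, the form of most dividing cells, was at 447, 639 and 496 CPM in the controls and 397, 473 and 573 CPM in the mutants (-0.13 ± 0.20 on the log2 scale, 0.0018 without mutant 1). Ptbp3, a form of blood cells, was at 425, 521 and 438 CPM in the controls and 458, 395 and 414 CPM in the mutants (-0.13 ± 0.14). Ptbp2, best known from neurons, was at 79.6, 46.9 and 65.1 CPM in the controls and 53.2, 52.7 and 50.2 CPM in the mutants. Its 3 mutant values were close together, and control 2 was the only control below them (-0.29 ± 0.20, -0.48 without control 2 and -0.11 without control 1). In the mean level of the 3 genes the groups did not overlap, at -0.027 to 0.022 in control and -0.21 to -0.11 in mutant libraries. No single gene of them had separate groups. The control means average opposite deviations: Ptbp2 was at 0.35 and -0.41 in control 1 and 2, and Ptbp1 at -0.22 and 0.30. The summed CPM overlapped, at 951, 1207 and 999 in the controls and 908, 920 and 1038 in the mutants.

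Celf and Mbnl proteins oppose each other at many exons, a relation worked out in muscle. Of the Celf genes, Celf1, which also promotes the decay of GU-rich mRNAs, was at 393, 436 and 398 CPM in the controls and 308, 409.7 and 438 CPM in the mutants (-0.087 ± 0.17 on the log2 scale, 0.063 without mutant 1). Celf2, a splicing regulator that is abundant in T cells, was at 317, 366 and 296 CPM in the controls and 324, 291 and 197 CPM in the mutants. Here mutant 3, not mutant 1, was the lowest library, and the log2 fold change was -0.27 ± 0.20 on all libraries, -0.41 without mutant 1 and -0.091 without mutant 3. Celf3, Celf4 and Celf5, genes of the nervous system, were near the limit of detection: 1.20 to 3.66 against 1.84 to 2.95 CPM for Celf3, 1.05, 0.418 and 0.386 against 0.311, 0.821 and 0.543 CPM for Celf4 and 0.377, 0.491 and 0.275 against 0.141, 2.55 and 0.408 CPM for Celf5, with the controls first. Celf5 had a log2 fold change of 1.42 ± 0.93 that came from mutant 2, the library with the highest B cell marker sum. The part of other cells in that value was not tested. Those of Celf3 and Celf4 were -0.0090 ± 0.44 and -0.13 ± 0.55. The edgeR adjusted p-values of the 5 genes ran from 0.742 to 0.996.

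The Mbnl genes had higher means in mutant cells, against the direction of most other classes. Mbnl3, the X-linked muscleblind gene, was at 116, 168 and 120.4 CPM in the controls and 196, 233 and 146 CPM in the mutants. Mutant 1 and 2 were above every control and mutant 3 lay between control 3 and control 2. On the log2 scale the difference was 0.51 ± 0.22 (SE; 95% interval from 0.0010 to 1.01), with an unadjusted p of 0.0496 and an adjusted p of 0.654 in edgeR, so it did not pass. It stayed between 0.37 and 0.69 when each library was left out in turn. Mbnl1, the main muscleblind protein of most tissues, was at 1160.4, 1329 and 1002 CPM in the controls and 1276, 1576 and 1432 CPM in the mutants. Its mutant 2 and 3 values exceeded every control, and mutant 1 lay below control 2 only (0.30 ± 0.16, with 0.21 to 0.40 when a library was left out). Unlike Srsf1 or Tra2a, both genes kept a higher mean without mutant 1, at 0.50 for Mbnl3 and 0.38 for Mbnl1. Mbnl2 was at 115, 81.2 and 91.0 CPM in the controls and 129, 95.2 and 84.9 CPM in the mutants and turned from 0.10 to -0.076 without mutant 1. In the mean level of the 3 genes, mutant 3 at 0.10 lay just below control 2 at 0.11, with mutant 1 and 2 at 0.38 and 0.42.

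The Rbm genes share a name for their RNA recognition motif rather than a common role, and their means differed in both directions. Rbm5, a regulator of the splicing of apoptosis genes, was at 161, 170.3 and 186 CPM in the controls and 232, 219.7 and 188 CPM in the mutants, without overlap of the groups. The gap between control 3 and mutant 3 was less than 2 CPM, and the log2 fold change was 0.31 ± 0.14 (SE; edgeR adjusted p = 0.666). Its close relative Rbm10 was at 76.5, 85.6 and 74.8 CPM in the controls and 55.0, 69.0 and 75.7 CPM in the mutants and so had the opposite sign (-0.25 ± 0.16, -0.11 without mutant 1). Rbm25, which binds U1-associated factors and promotes the use of upstream 5' splice sites in Bcl2l1, was at 523, 373 and 477 CPM in the controls and 311, 349.5 and 406 CPM in the mutants. Only control 2 lay within the mutant range (-0.36 ± 0.18, and -0.49 without control 2). Rbm39, a relative of the splicing factor U2AF2, was at 436, 386 and 404 CPM in the controls and 395, 377 and 397 CPM in the mutants, a difference of -0.069 ± 0.13 with an interval from -0.36 to 0.22.

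Rbm8a, the Y14 subunit of the exon junction complex that marks spliced mRNA, was at 90.7, 104 and 86.8 CPM in the controls and 60.5, 77.0 and 94.1 CPM in the mutants (-0.28 ± 0.18 on the log2 scale, -0.12 without mutant 1). Rbm8a2, an intronless copy of it, was at 9.52, 10.7 and 10.1 CPM in the controls and 6.19, 8.13 and 8.37 CPM in the mutants, without overlap of the groups (-0.41 ± 0.20, -0.28 without mutant 1). Its counts were fractional in every library, and how reads were shared between it and Rbm8a is not known, so its value is uncertain. Higher in the mean were Rbm38, a p53 target that stabilises mRNAs, at 71.5, 110.3 and 77.0 CPM in the controls and 156, 92.3 and 103 CPM in the mutants (0.44 ± 0.25), and Rbm45 at 47.4, 70.0 and 53.3 CPM in the controls and 79.3, 70.5 and 60.6 CPM in the mutants (0.30 ± 0.19). Mutant 1 was the highest library of both, and without it the log2 fold changes were 0.19 and 0.22. Rbm12b1 was at 22.0, 21.8 and 24.7 CPM in the controls and 23.3, 29.7 and 26.5 CPM in the mutants (0.22 ± 0.15); its neighbour Rbm12b2 is a near-identical copy, and the split of reads between them is uncertain. The cold-induced gene Rbm3 was at 307, 463 and 345 CPM in the controls and 277, 330.0 and 365 CPM in the mutants (-0.20 ± 0.19, -0.084 without mutant 1 and -0.012 without control 2), and its antisense partner Rbm3os, named afterwards for this overlap, at 1.54, 1.42 and 1.46 CPM in the controls and 1.33, 1.10 and 2.36 CPM in the mutants. Whether strand was used in counting is not stated, and without it reads from their shared stretch belong to either. Rbm42, named after its values were seen because its groups did not overlap, was at 31.7, 37.4 and 30.5 CPM in the controls and 38.0, 37.6 and 37.6 CPM in the mutants, with a gap of less than 0.3 CPM (0.19 ± 0.14). Rbm11, also named afterwards for its log2 fold change of 1.05 ± 0.93, was at 0.377, 0.442 and 0.551 CPM in the controls and 2.43, 0.170 and 0.245 CPM in the mutants, a value set by mutant 1 alone. The edgeR adjusted p-values of the 35 tested Rbm genes ran from 0.666 to 0.989, the last for Rbm26.

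**Figure D3:**
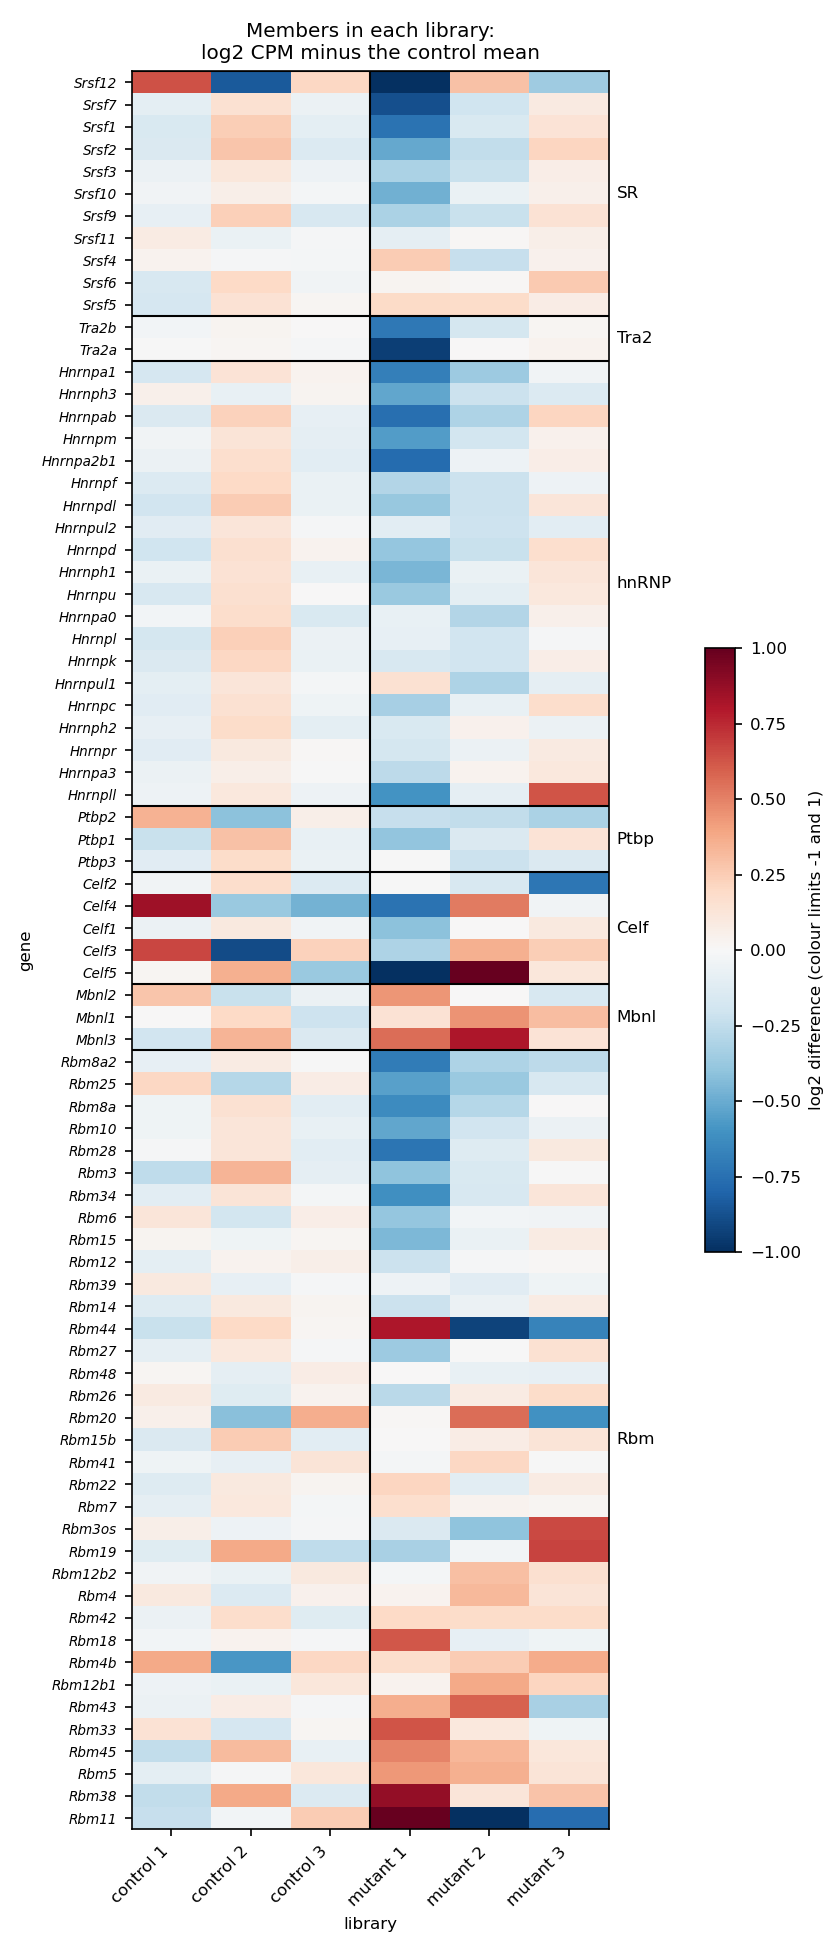
Log2 CPM of the 79 tested members (rows, by class and then by fold change) in the 6 libraries (columns), minus the mean of the 3 controls, with colours limited to -1 and 1. The mutant 1 column is blue through most of the SR, Tra2 and hnRNP rows and mixed among the Rbm rows, while the mutant 3 column is near the control level in most rows.

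The 3 mutant libraries differed from each other. Mutant 1 was below every control in 45 of 79 members and above every control in 16. Over all genes tested mutant 1 was below every control in 34.9% and above in 37.0%, so the members' shares were 57.0% and 20.3%. For mutant 2 the counts were 34 and 13 members (43.0% and 16.5%, against 27.3% and 28.0% of all genes). For mutant 3 they were 9 and 19 (11.4% and 24.1%, against 28.6% and 23.9%). Mutant 1 was the lowest of the 6 libraries in 43 of 79 members (54.4%), against 29.2% of all genes tested, a count made after the values were seen. By class this held for 8 of 11 SR, 15 of 20 hnRNP and 14 of 35 Rbm genes. The mean level of the SR genes relative to the control mean was -0.37, -0.076 and 0.072 in mutant 1, 2 and 3, where the controls ran from -0.034 to 0.047. The Tra2 pair was at -0.83, -0.088 and 0.028. The mean Rbm level lay between -0.039 and 0.023 in all 6 libraries. It averages genes of both directions and includes the barely expressed Rbm11, at 2.29 in mutant 1. Summed over the 11 SR genes the libraries held 3201, 3848 and 3278 CPM in the controls and 2692, 3166 and 3747 CPM in the mutants. The 20 hnRNP genes summed to 9776, 11932 and 10267 CPM in the controls and to 8154, 9509 and 11203 CPM in the mutants. For the 35 tested Rbm genes the sums were 3516, 3573 and 3512 CPM in the controls and 3280, 3426 and 3617 CPM in the mutants. Mutant 1 and 2 were thus below every control in that sum, and mutant 3 was above. Mutant 1, low in SR, Tra2 and hnRNP transcripts, was also the library low in activation and high in quiescence genes. Myc, a transcription factor of growing T cells from the activation list, named after its values were seen, was at 307, 285 and 309 CPM in the controls and 252, 226 and 281 CPM in the mutants. It was lowest in mutant 2, not mutant 1. Of the 14 activation genes, 10 had a lower and 4 a higher mean. In 3 of them every mutant value lay below every control: Irf4 (log2 fold change -0.56), Tfrc (-0.53) and Myc (-0.25). The share over all genes tested was 7.48%. The part of T cell state in the members' values was not tested.

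**Figure D4:**
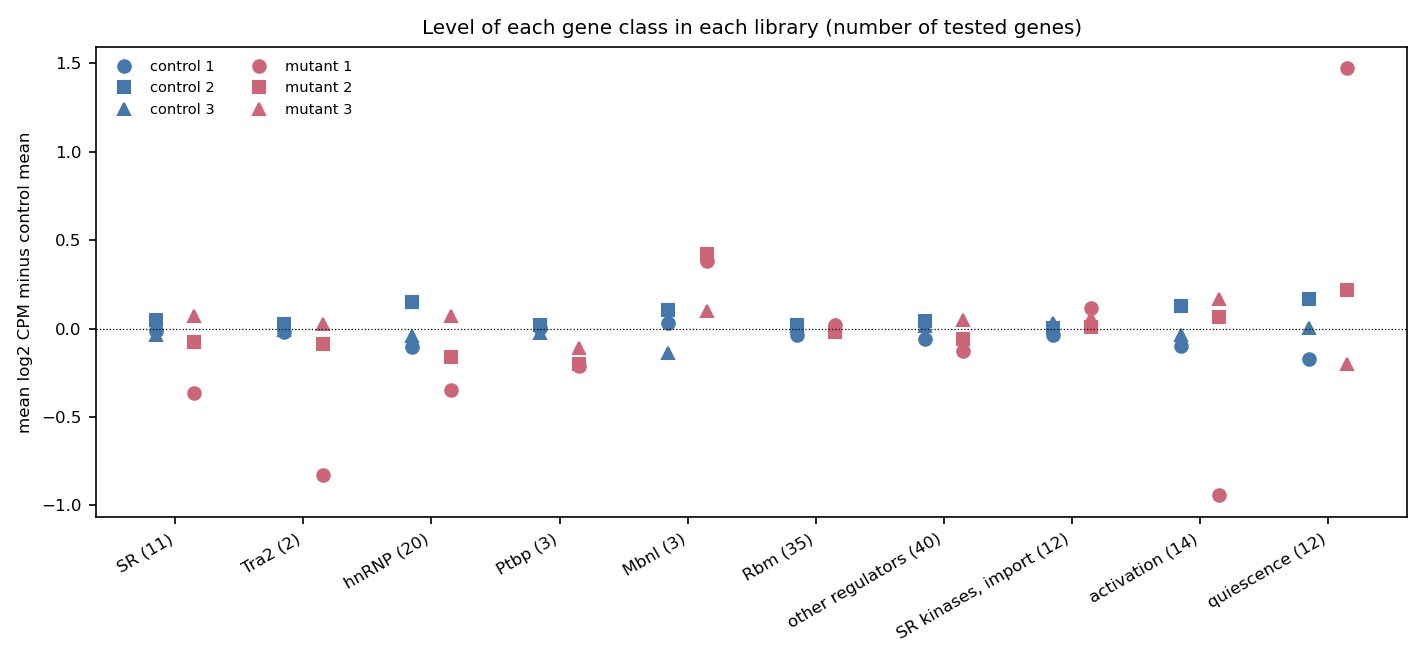
Mean log2 CPM of each gene class except Celf, and of the other gene lists, minus its control mean (y axis) in each library. Controls are in blue and mutants in red, with the library number as marker shape. The Celf class is not drawn. The number of genes is given in brackets. Mutant 1 (red circle) is lowest for the SR, Tra2, hnRNP and activation genes, the other regulators and, narrowly, the Ptbp genes. It is highest for the quiescence genes and for the SR kinase and import genes. The mean of the Rbm class shows almost no spread.

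Without mutant 1 the medians of the SR, Tra2 and hnRNP classes were 0.0015, -0.016 and -0.029, with 5 of 11, 1 of 2 and 13 of 20 genes lower. The Ptbp median was then -0.18 and the Mbnl median 0.38. Without mutant 3, groups did not overlap in 23 members that were lower (29.1%, against 16.1% of all genes in that fit) and 6 that were higher (7.59%, against 15.9%). The SR, Tra2 and hnRNP medians were then -0.28, -0.41 and -0.25. The shares of all genes in that fit were not matched for abundance either. No member passed edgeR's test in any of these fits, and the lowest adjusted p of a member was 0.329, without mutant 3.

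**Figure D5:**
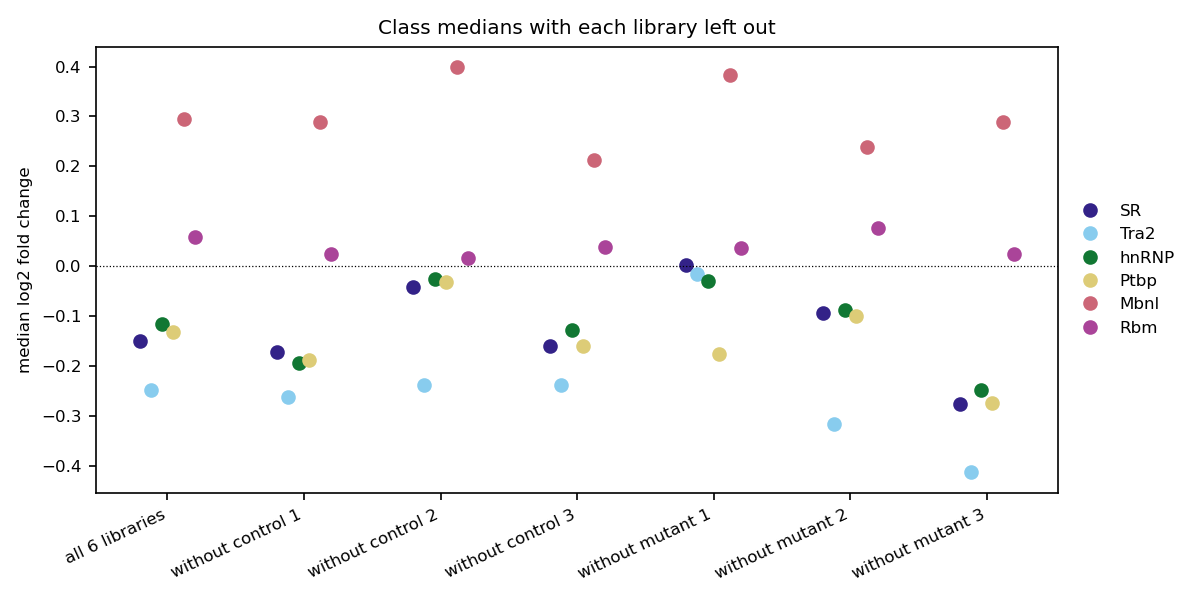
Median log2 fold change (y axis) of 6 classes on all libraries and with each library left out (x axis). The SR, Tra2 and hnRNP medians move to near 0 without mutant 1 and furthest below 0 without mutant 3. Those of the SR and hnRNP classes also lie near 0 without control 2, while the Mbnl median stays between 0.21 and 0.40.

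Per length of annotated exon, the members with the highest mean over the 6 libraries were Hnrnpf at 309.7 CPM per kb, Hnrnpab at 272, Hnrnpa2b1 at 196, Hnrnpa1 at 176, Srsf2 at 164 and Srsf1 at 134 CPM per kb. The lengths are unions of all exons annotated in GENCODE M21, an annotation of another build than the authors', matched by Ensembl ID for all 80 genes. Ptbp1 was at 106 CPM per kb, Rbm3, highest of the Rbm genes, at 74.0 and Mbnl1 at 69.2. Among the regulators with neuronal relatives, the widely expressed form was the more abundant per length: 106 for Ptbp1 against 6.32 CPM per kb for Ptbp2, and 47.0 for Celf1 against 0.459 CPM per kb for Celf3.

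Phosphorylation by Srpk and Clk kinases controls where SR proteins are and how they act, and Tnpo3 imports them into the nucleus. A list of 12 genes held the Srpk and Clk kinases, Tnpo3 and Tnpo1, and also Prpf4b, Dyrk1a and Ppp1r8. Of these, 8 had a higher and 4 a lower mean (median log2 fold change 0.050). The lower ones were Clk2, Tnpo3, Tnpo1 and Ppp1r8, so both import genes were lower. In edgeR 0 of the 12 passed the test and 0 had an unadjusted p under 0.05. Clk1, which autoregulates through retained introns, was at 183, 194 and 201 CPM in the controls and 252, 245 and 198 CPM in the mutants, with mutant 1 and 2 above every control and mutant 3 within their range (0.27 ± 0.14 on the log2 scale). Clk4 followed the same order at 60.9, 67.9 and 71.6 CPM in the controls and 90.7, 78.7 and 69.2 CPM in the mutants (0.25 ± 0.15, 0.16 without mutant 1). Srpk3 was low, at 1.95, 1.20 and 1.82 CPM in the controls and 2.74, 1.67 and 2.01 CPM in the mutants (0.37 ± 0.34, 0.17 without mutant 1 and 0.18 without control 2). Of 50 other splicing regulators outside the symbol rule, 40 were tested, of which 14 had a higher and 26 a lower mean (median -0.062). None passed edgeR's test and 0 had an unadjusted p under 0.05. Groups did not overlap in 5 of the 40 on the higher side (against 6.60% of all genes) and in 1 on the lower side (against 7.48%). Taf15, an RNA-binding protein of the FET family, was at 109, 98.6 and 112 CPM in the controls and 46.4, 88.6 and 92.1 CPM in the mutants, below every control in each mutant library and lowest in mutant 1 (-0.49 ± 0.25, -0.23 without mutant 1). Safb2, a scaffold attachment factor, was at 95.1, 98.1 and 103 CPM in the controls and 106, 115 and 124 CPM in the mutants (0.22 ± 0.13), higher in every mutant library. The helicase gene Ddx17 was at 384, 431 and 449.8 CPM in the controls and 517, 564 and 429 CPM in the mutants (0.25 ± 0.15). The level of these 40 genes in mutant 1, 2 and 3 was -0.13, -0.058 and 0.049, against -0.37, -0.076 and 0.072 for the SR genes. The difference between these lists was not tested.

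The members' promoters were searched for the E-box CACGTG, which Myc is known to bind, a choice made after the values of Myc were seen. Every mutant value of Myc lay below every control value, as in 7.48% of all genes tested. Its log2 fold change was -0.25 ± 0.14 (SE), and it did not pass (edgeR adjusted p = 0.714). RefSeq promoter sequences of build GRCm38.p6, from 250 bases before to 50 after each start, were at hand for 67 of the 80 genes (99 starts). The E-box, which reads the same on both strands, was found at 11 of 99 starts (11.1%), against 7.15% of all 32851 starts. The ETS word CCGGAAG, on either strand, was found at 16.2% of the members' and 8.86% of all starts, and the consensus word of NRF1 at 1.01% and 0.971%. The starts of a gene overlap in part, so these shares are descriptions. In 9 genes the E-box lay in the 250 bases before a start. They are shown for Hnrnpf and Ptbp1, whose means were lower in mutant cells, and for Mbnl1, whose mean was higher, so the word occurs at genes of either direction. Each is written 5′ to 3′ on the gene's strand up to the last base before the start, with the E-box in capitals. The Hnrnpf sequence, at 1 of 4 listed starts, is chr6:117907554-117907803 on the + strand. The Ptbp1 sequence, at its only listed start, is chr10:79854182-79854431 (+), and the Mbnl1 sequence, at 1 of 2 starts, is chr3:60472580-60472829 (+).
Hnrnpf: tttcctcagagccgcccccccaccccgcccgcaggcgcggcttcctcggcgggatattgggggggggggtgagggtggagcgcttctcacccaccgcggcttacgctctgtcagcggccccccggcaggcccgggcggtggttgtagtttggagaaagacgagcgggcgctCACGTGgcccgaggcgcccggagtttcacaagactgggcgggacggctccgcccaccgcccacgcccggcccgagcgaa
Ptbp1: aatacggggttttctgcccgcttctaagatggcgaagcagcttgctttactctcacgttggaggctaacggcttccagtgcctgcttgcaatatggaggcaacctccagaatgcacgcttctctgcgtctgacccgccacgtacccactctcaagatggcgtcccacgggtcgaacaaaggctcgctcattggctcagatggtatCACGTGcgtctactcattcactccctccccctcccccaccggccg
Mbnl1: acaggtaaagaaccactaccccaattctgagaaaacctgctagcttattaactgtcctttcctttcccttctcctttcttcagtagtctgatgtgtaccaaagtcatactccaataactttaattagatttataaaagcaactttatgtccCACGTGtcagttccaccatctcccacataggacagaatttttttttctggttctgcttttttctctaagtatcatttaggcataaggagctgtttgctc
A match of letters does not show binding, and the data hold no measurement of Myc on these promoters.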

How the data were processed

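RNA was measured in 3 control and 3 mutant samples of mouse splenic CD4+ T cells. Per the labels' protocols, the library kit depletes ribosomal RNA. Per the submitters' processing notes, STAR 2.7.8a, Partek and the builds GRCm39 and mm39 were used; the sources used here do not give what each was used for, the annotation or strand handling. The table deposited by the authors holds estimated counts per gene, not normalized, with 26469 rows; 57.8% of its values are exactly whole and 65.7% are within 0.01 of a whole number.

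Counts were expected to be whole in the design; being estimated, they were rounded. The filterByExpr function (minimum count 10) kept 18323 genes. After TMM scaling, edgeR 4.0.16 (R 4.3.3) compared the groups, mutant minus control, by its quasi-likelihood test with robust dispersions, without covariates. P-values are two-sided and adjusted by Benjamini and Hochberg over the 18323 genes, and 0.05 was the threshold. Errors of fold changes are standard errors, and intervals are 95% intervals on the total degrees of freedom. Log2 CPM used a prior count of 2. Depth was 33633196 to 43928723 counts per library. Within a group, every pair of libraries differed beyond counting noise (chi-square over its degrees of freedom 13.8 to 126).

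The members and all lists were chosen with earlier results of these data known. Genes named are all tested SR, Tra2, Ptbp, Celf and Mbnl genes, the 8 smallest p-values and 3 highest mean CPM among hnRNP and Rbm genes, the 3 smallest p-values of both other lists, and Sf3b1; others are said to be named afterwards. Alternatives were DESeq2 1.42.0, limma-voom (limma 3.58.1), other scalings and filters, a fit that drops genes of mitochondrial and small structural RNAs, a replicate block, and leaving out each library. The procedure was tested on counts simulated with the spread of these data, with changes set in genes above 1 CPM. At an edgeR adjusted p under 0.05 it recovered 28% of 2-fold and 77% of 4-fold changes, with 11 false calls. In that simulation most changes of 2-fold thus did not pass. The changed genes were drawn at random, so recovery at the abundance of the members (median 161 CPM) was not measured. No shift shared by the genes of a library was simulated.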

Additional observations from a re-analysis of the deposited data

How the results depend on the processing

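In all 14 alternatives, 0 members passed an adjusted p of 0.05. The count of members at an unadjusted p under 0.05, 1 in edgeR, was 0 with DESeq2 size factors, DESeq2 or limma-voom and 2 with upper quartile scaling, a filter of 1 CPM in 3 samples or without mitochondrial genes and small structural RNAs. It ran from 0 to 7 when 1 library was left out; the 7, without mutant 3, are 8.86% of the members against 12.9% of all genes in that fit. Members without overlap that were higher, 2 in all, numbered 1 with DESeq2 size factors, no count filter or DESeq2 and 5 with upper quartile scaling, and from 2 to 10 when a library was left out (10 without control 2). Those that were lower, 2 in all, ran from 2 to 23 (23 without mutant 3, 7 without control 2). The median log2 fold change of the members ran from -0.15 to 0.0021 and the number with a lower mean from 36 to 54.

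Of 50 named genes, 36 kept 1 sign in every alternative, and in 41 leaving out 1 library moved the fold change by over 1.5 times or turned it (33 without mutant 1). Celf3 turned to 0.0033 with upper quartile scaling, 0.013 with the 1 CPM filter, 0.12 in limma-voom, 0.091 with the replicate block and 0.0062 without the mitochondrial genes and small RNAs. Srsf11 turned to 0.024 with upper quartile scaling or the 1 CPM filter and 0.00996 without those RNAs. When a library was left out, ranges that crossed 0 were Celf1 -0.19 to 0.063, Celf3 -0.35 to 0.35, Celf4 -0.50 to 0.47, Celf5 -0.45 to 1.95, Hnrnpa2b1 -0.37 to 0.016, Hnrnpu -0.24 to 0.015, Mbnl2 -0.076 to 0.25, Ptbp1 -0.28 to 0.027, Srsf1 -0.43 to 0.0015, Srsf10 -0.27 to 0.0055, Srsf11 -0.045 to 0.045, Srsf2 -0.39 to 0.0021, Srsf4 -0.076 to 0.17 and Tra2a -0.40 to 0.031. The cause was not tested. Where leaving out a library leaves 2 samples in a group, the spread is shared with the other group.

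Same-numbered control and mutant libraries did not deviate together (correlations of deviations -0.048, -0.067 and -0.028). These values showed no pairing by number, but with 3 libraries per group they cannot settle whether there is a pairing. With the replicate block, 0 members passed and 1 had an unadjusted p under 0.05. At this depth and spread, 8 members could not be bounded within 2-fold.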
